A study of Mus musculus with 5 samples.

Results

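Control mesoderm cells at day 4 of differentiation were set against undifferentiated mouse embryonic stem cells (ESCs) at day 0, with 1 array on each side. Of 17742 genes named on the array, 11293 entered the comparison because the brighter of the 2 arrays lay at or above its own median, a log2 intensity of 9.16. Control day 4 cells had been grown without serum in Bmp4 at 0.2 ng/ml, Activin A at 5 ng/ml and VEGF at 5 ng/ml. ESCs had been grown on feeder cells, taken off before harvest, in medium with 15% serum and leukaemia inhibitory factor (LIF) at 1000 U/ml. The labels name the ESC line 46C, known as a line with a green fluorescent protein reporter in Sox1, and give both groups the genotype control. Total RNA was labelled with Cy5 and measured in 1 colour. The series also holds 1 array each of Linc1405 knockdown cells at day 4, control cells at day 10 and knockdown cells at day 10, whose values are given beside some genes below. In all 5 groups the culture stands for 1 sample, so no spread within a group was measured and no test was run.

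In the mouse embryo, pluripotent epiblast cells enter the primitive streak, lose epithelial contacts and leave as mesoderm, guided by Nodal, Wnt, BMP and FGF signals. The T-box factors T and Eomes act early in this process, and Mesp1 marks the cells that go on to heart, blood vessel and blood. In culture, Activin A stands in for Nodal, Bmp4 supplies the BMP signal, and VEGF acts on the receptor encoded by Kdr.

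The labels of both arrays were first set against marker genes. Of 8 mesoderm markers, 7 (T, Mixl1, Mesp1, Kdr, Pdgfra, Hand1 and Foxf1) were at least 2-fold higher at day 4, and Eomes differed by -0.14 on the log2 scale. All 7 measured ESC markers (Pou5f1, Sox2, Esrrb, Zfp42, Klf4, Tfcp2l1 and Tdgf1) were at least 2-fold lower at day 4, although in the values as deposited the difference of Pou5f1 was -0.92, under 2-fold. Nanog, Nodal, Lefty1 and Lefty2 were not analysed here. Median intensities before normalization were 665 at day 4 and 633 in ESCs. Housekeeping genes differed among themselves, with Actb at 0.32, Tbp at -0.04 and Hprt at -1.65, and the sign of Tbp changed with the scaling.

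After quantile normalization, 1447 genes, or 12.8% of those past the filter, had a day 4 level at least 2-fold higher and 1574 (13.9%) were at least 2-fold lower. At 4-fold there were 450 higher (3.98%) and 658 lower (5.83%), and at 16-fold 92 higher and 134 lower. At the other end, 3341 genes lay within 1.2-fold of the ESC level. Just inside the 2-fold limit stood Rhobtb1 (1.0004) and Mak (-1.0012), and just outside it Dennd2a (0.999) and Krt86 (-0.998). Levels below an intensity of 100, a log2 value of 6.64, were set to that floor, so a difference with 1 array at the floor understates its size on the normalized scale. Normalization moved some dim probes from just above 100 to the floor, and "at least" is written below only where the deposited intensities gave a larger difference as well. ESCs lay at the floor in 35 of the higher genes, and day 4 lay at the floor in 50 of the lower genes. As deposited, without normalization between arrays, 64.8% of the called genes were higher, against 47.9% after normalization, and the median of all genes lay at 0.17 in place of 0. The only error that could be measured was between probes of the same gene: the SD of a single probe's log2 difference was 0.612 over 1110 genes. Of 300 genes called 2-fold on their first probe, 266 had the same sign on the second and 178 were 2-fold apart in the same direction. All levels below are normalized log2 intensities and all differences are day 4 minus ESC on the log2 scale.

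**Figure D1:**
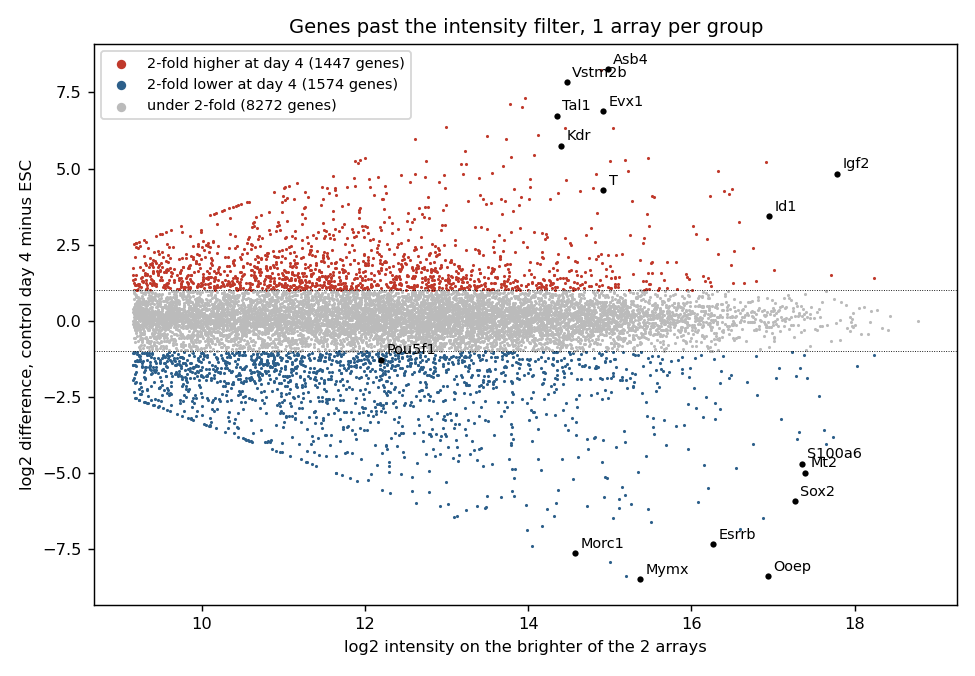
Each point is 1 of 11293 genes, with the log2 intensity on the brighter array on the x axis and the log2 difference, control day 4 minus ESC, on the y axis. Red points are the 1447 genes at least 2-fold higher at day 4 and blue points the 1574 at least 2-fold lower, dotted lines mark 2-fold, and the straight lower and upper edges on the left are genes with 1 array at the floor.

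Genes of the primitive streak were higher at day 4. Past the filter 21 of 27 list members were called higher and 3 lower, and the median over all 31 measured members was 1.91, against 0 over all genes. The counts of every list below stand against the shares over all genes, 12.8% higher and 13.9% lower. Among the T-box and homeobox factors, Evx1, which marks the posterior streak, was at 14.91 at day 4 against 8.03 in ESCs. T, the brachyury factor needed for posterior mesoderm, was at 14.92 at day 4 against 10.62 in ESCs. Mixl1, a homeobox gene of nascent mesendoderm, was at 12.21 at day 4 against 8.21 in ESCs. In all 3 the difference was 4 log2 units or more. Cdx2, a regulator of posterior identity, was higher by 4.80, Lhx1, which acts in the anterior streak, by 3.13, Tbx6, of paraxial mesoderm, by 2.27, and Gsc, of the anterior streak, by 1.76. Cdx1 ran the other way at -1.78. Eomes stood at 12.01 at day 4 against 12.15 in ESCs, a difference smaller than the between-probe SD and positive (0.23) in the values as deposited.

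Most signals and other genes of the streak list were higher too, 14 of 18 past the filter, with 2 lower. Fgf3 was higher by 5.27, Wnt5b by 3.06, Sp5, a Wnt-induced transcription factor, by 3.08, Wnt3, the ligand that starts streak formation in the mouse, by 2.40, and Foxa2, a factor of endoderm and axial mesoderm, by 2.25. Fgf8, which mesoderm needs in order to leave the streak, differed by 4.43, 1.59 and 1.02 on its 3 probes. Dkk1, a secreted Wnt inhibitor, was at the floor in ESCs, with a difference of 4.24 after normalization and 4.14 in the deposited intensities. Fgf4 (-4.73) and Fgf17 (-1.77) were the streak-list ligands on the lower side.

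The promoters of the streak genes were searched for 15 short motifs in the 300 bases around each start, using RefSeq sequence of the mouse build GRCm38.p6. Promoters were found for 13980 of the 17742 genes. CTTTGAT, the site of Tcf and Lef factors that carry Wnt signals, was present on either strand in 3 of 28 streak-list promoters (10.71%) and in 2.95% of the 17303 promoters of all named genes. Over genes called higher the share was 2.18%, over genes called lower 2.34%. The holders in the streak list were Sp5, Wnt5b and Foxa2. ATTTGCAT, the octamer of Pou factors, was present in 3 streak promoters (10.71%) and in 1.57% of all, and its holders were Cdx2, Cdx4 and Evx1. Other motifs were also more frequent in the streak list than in all promoters, among them CACCTG (32.1% against 19.8%), TATAAA (17.9% against 10.3%) and CCAAT (46.4% against 37.3%). Below are windows that hold CTTTGAT or the octamer upstream of the gene's start, with the motif on either strand in capitals. They were picked because their genes were called higher, so that call says nothing about the motif. Cdx4 also holds the octamer upstream but is not shown. It lay below the filter, at 8.26 at day 4 with ESCs at the floor. They lie at chr2:70474799-70474845 (plus strand) for Sp5, chr6:119449431-119449477 (minus strand) for Wnt5b, chr6:52313352-52313399 (plus strand) for Evx1 and chr5:147307369-147307416 (minus strand) for Cdx2.
Sp5: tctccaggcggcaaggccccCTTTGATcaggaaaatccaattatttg
Wnt5b: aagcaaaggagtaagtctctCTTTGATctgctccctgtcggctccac
Evx1: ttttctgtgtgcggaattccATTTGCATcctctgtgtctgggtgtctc
Cdx2: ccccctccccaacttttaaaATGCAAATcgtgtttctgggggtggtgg
A match describes the letters in these windows, and no binding was measured.

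Early cardiac and lateral plate mesoderm genes had the same direction: past the filter, 30 of 42 were called higher and 3 lower, with a median of 1.87 over 51 measured members. Several of the highest lay at the floor in ESCs. Mesp1 was at 13.78 at day 4 and at the floor in ESCs, a difference of 7.13 after normalization and 7.06 in the deposited intensities (16321 at day 4 against 122 in ESCs). Msx2, a homeobox target of BMP, was at least 6.35 higher, Hand2, a factor of heart and limb fields, at least 5.24, and Tbx20, a cardiac T-box factor, at least 3.74. Foxf1, the forkhead factor of lateral plate, was at 13.73 at day 4 against 7.74 in ESCs. Kdr was at 14.41 at day 4 against 8.65 in ESCs. Both differences were above 5 log2 units.

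Other lateral plate genes were nearer to their ESC level. Hand1 was higher by 4.05, Gata6 by 3.81, Pdgfra, the PDGF receptor of early mesoderm, by 3.16, and Gata4 by 1.86. On the lower side of the list were Tdgf1 (-3.86), Prrx1 (-1.93) and Sfrp1 (-1.82). Sarcomere genes, which mark contracting muscle, were split, with 3 of 10 members past the filter higher and 3 lower, led by Actc1, cardiac actin, at 2.85.

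Blood transcription factors were among the highest groups. All 17 such factors passed the filter, 15 were called higher and none lower, with a median of 3.63. Tal1, which specifies blood from mesoderm, was at 14.35 at day 4 against 7.62 in ESCs. Lmo2, its partner, was at 14.45 at day 4 against 8.13 in ESCs. Gata2, a factor of blood progenitors, was at 13.24 at day 4 against 8.08 in ESCs. Etv2, the Ets factor that opens the blood and vessel programme, was higher by 4.81, Fli1 by 4.35, Runx1 by 3.63 and Gata1, of the red cell lineage, by 2.91. Cbfa2t3, a corepressor, differed by 4.68, 0.97 and 0.39 on its 3 probes, and the other probe of Gata2 by 3.75. Of 9 other blood genes past the filter, among them receptors and enzymes, 4 were higher and 2 lower. Kit, the receptor of stem cell factor, was among the lower at -1.64, and Itga2b lay below the filter.

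Endothelial genes were higher in 17 of 30 members past the filter and lower in 3, with a median of 1.11. Beside Kdr the highest were Nrp1, a VEGF coreceptor, at 5.34 and 4.70 on its 2 probes, Ets1 (4.204), Sox17 (4.19) and Sox7 (4.43, with ESCs at the floor), Sox factors that endoderm also uses. The lower members were Mmrn2 (-2.33), Pecam1 (-1.66) and Eng (-1.30). Definitive endoderm genes were higher in 13 of 24 and lower in 6, with Spink1 at 3.805 and Foxa1 at 2.91 (2.87 in the deposited intensities) on the higher side and Cldn4 (-3.72), Trh (-3.64) and Otx2 (-2.99) on the lower. Neural genes were mostly level or lower, with 1 of 18 higher and 7 lower, led downwards by Neurod1 (-3.86). The trophoblast list was divided, with 8 of 17 higher and 7 lower. Its higher members included Gata2, Gata3 (4.78), Cdx2 and Hand1, which mesoderm also expresses, and Plac1 (at least 5.29), while Elf5, Tpbpa and Ctsq were at the floor on both arrays.

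**Figure D2:**
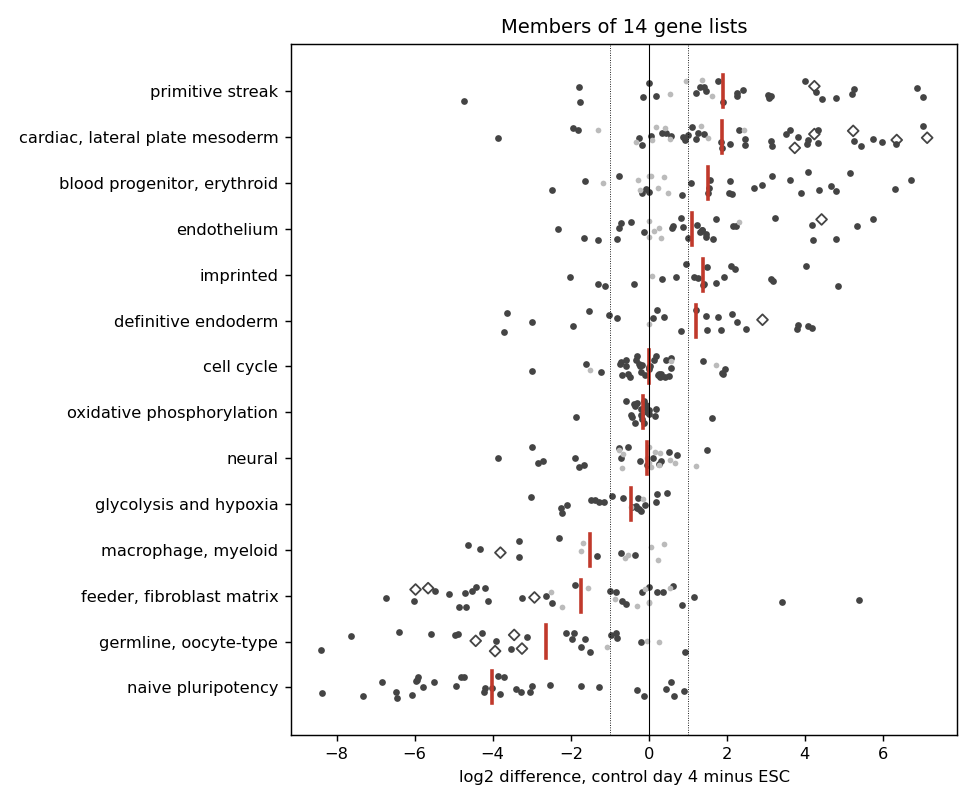
Each point is a measured member of 1 of 14 gene lists, with the log2 difference, control day 4 minus ESC, on the x axis. Dark points passed the intensity filter, open diamonds have 1 array at the floor, pale points lay below the filter, red bars are medians over all measured members (1.91 for primitive streak, -4.03 for naive pluripotency) and dotted lines mark 2-fold.

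Naive pluripotency genes were lower. All 33 measured members passed the filter, 27 were called lower and none higher, and the median was -4.03. Esrrb, an orphan nuclear receptor of the naive network, was at 8.93 at day 4 against 16.26 in ESCs. Tcl1, a coactivator of Akt kinase, was at 6.82 at day 4 against 15.20 in ESCs. Zfp42, known as Rex1, was at 8.58 at day 4 against 15.04 in ESCs. All 3 lay more than 6 log2 units lower. Sox2, which pluripotent and neural cells share, was at 11.35 at day 4 against 17.26 in ESCs. Fbxo15, an F-box protein gene of ESCs, differed by -6.85, Spp1, osteopontin, differed by -6.49, Jam2 by -6.08 and Tfcp2l1 by -5.95 on its brightest probe and -3.03 on the other.

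Pou5f1, which encodes Oct4, was the core factor with a small difference. It stood at 10.93 at day 4 against 12.20 in ESCs, and at 10.91 in knockdown cells at day 4, and at day 10 at 10.94 in knockdown cells and 11.53 in control cells. Its single probe thus gave a level above the filter on every array, on the arrays of the labelled cardiomyocytes too. Sall4 (0.91) and Tbx3 (0.45) lay above 0 without reaching 2-fold. The probes of Nr0b1, or Dax1, disagreed: the one used gave 0.56, and the other, at 8.82 at day 4 against 14.71 in ESCs, gave -5.90. In the primed epiblast list 8 of 18 members past the filter were higher and 4 lower, with Sall2 (3.11), Lef1 (2.98) and Fgf5 (2.10) on the higher side and Otx2 (-2.99) on the lower. In the list of LIF signalling, the receptor genes Lifr (0.35) and Il6st (0.05) were under 2-fold, while of 10 downstream factors and targets 5 were lower, among them Bcl3 (-3.07), and 2 higher. In the values as deposited 3 were lower and 3 higher.

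Germline and oocyte-type genes, which many ESC lines express, were lower as well. Past the filter 20 of 25 were called lower and none higher, with a median of -2.63 over 28 measured members. Ooep, an oocyte and early embryo protein, was at 8.55 at day 4 against 16.94 in ESCs. Morc1, a repressor of transposons in male germ cells, was at 6.94 at day 4 against 14.57 in ESCs. Mael, of the piRNA pathway, was at 6.73 at day 4 against 13.12 in ESCs. All 3 day 4 levels lay below the filter. Khdc3 differed by -5.57, Dazl, an RNA-binding protein of germ cells, by -4.98 and Tex19.1 by -4.90. Tdrd5 ran the other way at 0.92, under 2-fold. Of 6 Rhox genes past the filter, homeobox genes of the X chromosome active in reproductive tissue, 5 were lower, from Rhox13 (-3.999) to Rhox6 (-1.11).

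Several of the 15 motifs were more frequent in the germline promoters than in all promoters. CACGTG, the E-box read by Myc, Max and Mga, was present in 9 of 26 germline-list promoters (34.6%) and in 8.58% of the 17303 promoters of all named genes. The 26 promoters belong to 22 genes, and Hormad1 supplied 3 of the 9 through overlapping starts, so 7 genes held it. Its longer form TCACGTG, which contains it, was in 23.1% of the germline promoters and 4.81% of all. ACGTGC, which can overlap CACGTG, was in 19.2% of the germline promoters and 7.05% of all, CCACACCC in 11.5% and 3.69%, GGCGCC in 30.8% and 17.2%, and TATAAA in 15.4% and 10.3%. Over every gene called lower the share of CACGTG was 9.05%, over genes called higher 7.14% and over genes past the filter under 2-fold 10.6%. Its holders in the germline list were Mael, Stk31, Taf7l, Zp3, Mov10l1, Ddx4 and Hormad1, and all 7 were called lower. In the whole germline list 20 of 25 members past the filter were lower. The windows below, 1 for each gene and shown because they carry that motif, are in capitals at CACGTG, which reads the same on both strands. They lie at chr1:166238942-166238987 (minus strand, Mael), chr6:49395464-49395509 (plus, Stk31), chrX:134476514-134476559 (minus, Taf7l), chr5:135979904-135979949 (plus, Zp3), chr15:88982744-88982773 (plus, Mov10l1), chr13:112652314-112652359 (minus, Ddx4) and chr3:95559600-95559645 (plus, Hormad1).
Mael: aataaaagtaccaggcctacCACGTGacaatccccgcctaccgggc
Stk31: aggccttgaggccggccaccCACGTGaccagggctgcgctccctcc
Taf7l: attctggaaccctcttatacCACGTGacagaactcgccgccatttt
Zp3: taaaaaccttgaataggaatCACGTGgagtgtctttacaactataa
Mov10l1: ccttCACGTGctaaccgccaacctctcgtg
Ddx4: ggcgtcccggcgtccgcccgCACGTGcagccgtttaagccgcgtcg
Hormad1: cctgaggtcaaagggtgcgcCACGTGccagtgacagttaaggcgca
Stk31, Taf7l, Zp3 and Mov10l1 were at the floor at day 4, so their differences of -4.44, -3.94, -3.45 and -3.25 depend on the floor, while Ddx4 (-1.96) and Hormad1 (-1.74) were measured on both arrays.

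Matrix, fibroblast and myeloid genes were also lower at day 4. Of 31 fibroblast and matrix genes past the filter 18 were called lower and 3 higher, with a median of -1.73 over 40 measured. Decorin (Dcn) was at 8.94 at day 4 against 13.80 in ESCs. Periostin (Postn) was at 9.25 at day 4 against 13.77 in ESCs. Annexin A1 (Anxa1) was at 7.43 at day 4 against 14.17 in ESCs. All 3 stood above 13 in ESCs, and fibroblasts are known to express them. Ccl2 differed by -6.02, and Ccl7 by -5.98 after normalization and -5.70 in the deposited intensities. Igfbp7 differed by -5.47, while its other probe was at the floor on both arrays. Has2, hyaluronan synthase of migrating mesoderm, ran the other way at 5.39, as did Cxcl12 (3.41) and Fbn1 (1.16).

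Summed over this list, normalized intensity was 290510 at day 4 against 680382 in ESCs, with 8 of 40 members at the floor at day 4 (among them Lum, Col3a1 and Lox) and 2 in ESCs (Col3a1 and Cav1). Of 9 myeloid genes past the filter 7 were lower and none higher, with Laptm5 at -4.64, C1qa at -4.33 and Cd68 at -3.34. The myeloid sum was 7703 at day 4 against 57231 in ESCs, with Csf1r, Adgre1 and Ctss at the floor at day 4 and none of the 16 at the floor in ESCs. ESCs had been grown on feeder cells, and the part of feeder RNA in the lower genes was not tested. In bulk RNA, fewer cells of a type and less RNA per cell cannot be told apart. The same genes were at or above their ESC level again at day 10 in several cases: Dcn was at 15.58 in control cells at day 10 and Anxa1 at 14.26.

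Among members past the filter, families of related proteases and calcium-binding proteins shared this direction. For metalloproteases and their inhibitors the median was -1.35 past the filter and -0.18 over all 25 measured. For S100 and annexin genes it was -1.04 past the filter and -0.46 over all 24 measured. Of 13 matrix metalloproteases and their inhibitors past the filter, 8 were lower, among them Mmp3 (-4.72), Timp1 (-4.21) and Timp2 (-3.72), and only Mmp15, a membrane-bound protease, was higher, at 2.91. Among S100 and annexin genes 9 of 17 were lower and 2 higher. S100a4 differed by -5.13, and S100a6 was at 12.66 at day 4 against 17.35 in ESCs, whereas S100a8 (2.30) and S100a10 (1.23) were higher.

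Signalling genes were described by role, beginning with FGF. Of 9 FGF ligand genes past the filter 6 were higher and 3 lower. Over all 14 measured, 3 of them at the floor on both arrays, the median was 0.07, against 2.10 past the filter. Besides Fgf3 and Fgf8, Fgf10, of lateral plate and second heart field, was higher by 4.34, Fgf13 by 2.24 and Fgf5, of primed epiblast, by 2.10. Fgf4, the autocrine ligand of ESCs, was at 11.42 at day 4 against 16.15 in ESCs. Among receptors Fgfr2 (2.83) and Fgfr3 (2.66) were higher and Fgfr4 (-1.29) lower, while Fgfr1 lay below the filter. The feedback and target genes did not move as a group, with Spred1 (1.31) and Dusp5 (1.11) higher, Etv5 (-2.44) and Etv4 (-1.25) lower and Dusp6 level at -0.11.

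In the Wnt pathway, 7 of 10 ligand and agonist genes past the filter were higher and 2 lower. Over all 21 measured the median was 0.28, against 1.71 past the filter, which ligands dim in ESCs passed only through day 4. Rspo3, which strengthens Wnt signals through Lgr receptors, was at 13.92 at day 4 against 6.90 in ESCs, and its receptor gene Lgr5 was at 14.08 at day 4 against 8.63 in ESCs. Wnt2 was higher by 5.25, Wnt5a, a non-canonical ligand, by 2.32, and Wnt7b and Wnt9a were each at -1.43. The receptor Fzd1 was higher by 3.38, Fzd2 by 1.90 and Fzd3 by 1.43, and Fzd5 was lower at -3.73, -3.18 and -2.51 on its 3 probes. Of 9 targets 6 were higher, among them Nkd1 (3.85 and 2.16 on its 2 probes), Tnfrsf19 (2.05) and Axin2 (1.60), the last a feedback inhibitor, with Sp5, T and Cdx2 already given. Lef1 (2.98) and Tcf7l2 (1.74) were the nuclear factors that were higher, and Ctnnb1, beta-catenin, was level at 0.13. Of 11 secreted or membrane inhibitors 3 were higher, led by Dkk1 and Frzb (4.12), and 4 lower, among them Sfrp1.

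BMP targets were mostly higher. Of 9 past the filter 7 were higher and none lower, with a median of 2.38 over 11 measured. Id1, an inhibitor of bHLH factors and a direct target, was at 16.95 at day 4 against 13.52 in ESCs. Id3 was at 16.52 at day 4 against 14.24 in ESCs, and Id2 was higher by 1.91. Msx1 was higher by 3.52. The ligand genes Bmp4 (0.34) and Bmp2 (0.19) were nearly level, while Bmp5 (3.62) and Bmp7 (1.46) were higher and Bmp6 (-1.17) lower. Smad1 (2.42) and Smad9 (1.96), which carry the signal to the nucleus, and the receptor Bmpr1a (1.12) were higher. Of the inhibitors Bmper (5.58), Smad6 (4.39) and Fst (1.91) were higher, and Grem1 (-3.05) and Tob1 (-1.24) lower.

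In the Nodal and TGF-beta branch, ligand genes past the filter were split, with 2 of 6 higher and 2 lower. Of 9 receptor and coreceptor genes 3 were higher and 2 lower, and of 8 effectors 2 were higher and 1 lower. Of 5 inhibitors and targets 4 were higher and none lower, with a median of 1.21 over 7 measured. Tgfb2 was higher by 4.83 and 1.09 on its 2 probes and Tgfb1 by 1.57. The activin subunits Inhba (-4.64) and Inhbb (-4.53) were lower at day 4, in cells that had been given Activin A. The Nodal coreceptor Cfc1, or Cryptic, was at 15.04 at day 4 against 8.69 in ESCs. Its relative Tdgf1, or Cripto, was at 13.43 at day 4 against 17.29 in ESCs. Smad3 (1.25) and Foxh1 (1.41), which act in Nodal responses, were higher, and Tgif1, a corepressor, was lower at -1.29.

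Ligand and receptor genes of cell guidance past the filter were higher more often than lower. Over all measured members the medians were 1.12 for 22 ephrin and Eph receptor genes and 0.11 for 29 semaphorin and plexin genes. Of 16 ephrin and Eph receptor genes past the filter 9 were higher and 2 lower. Efnb2, the ephrin of arterial vessels, was higher by 3.38, Efna5 by 3.37, Efna1 by 3.06 and Efnb3 by 2.77. Epha2 (-3.68) and Epha4 (-1.51) were the lower members. Of 23 semaphorin and plexin genes 9 were higher and 4 lower, led by Plxna4 (4.28, with its other probe at the floor on both arrays) and Plxnd1 (3.22). In the Hedgehog pathway the coreceptor Gas1 (3.09), Gli3 (2.67), Boc (2.17) and Smo (1.9998) were higher, and Gli1 (-2.60), itself a target, and Gli2 (-1.69) lower.

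**Figure D3:**
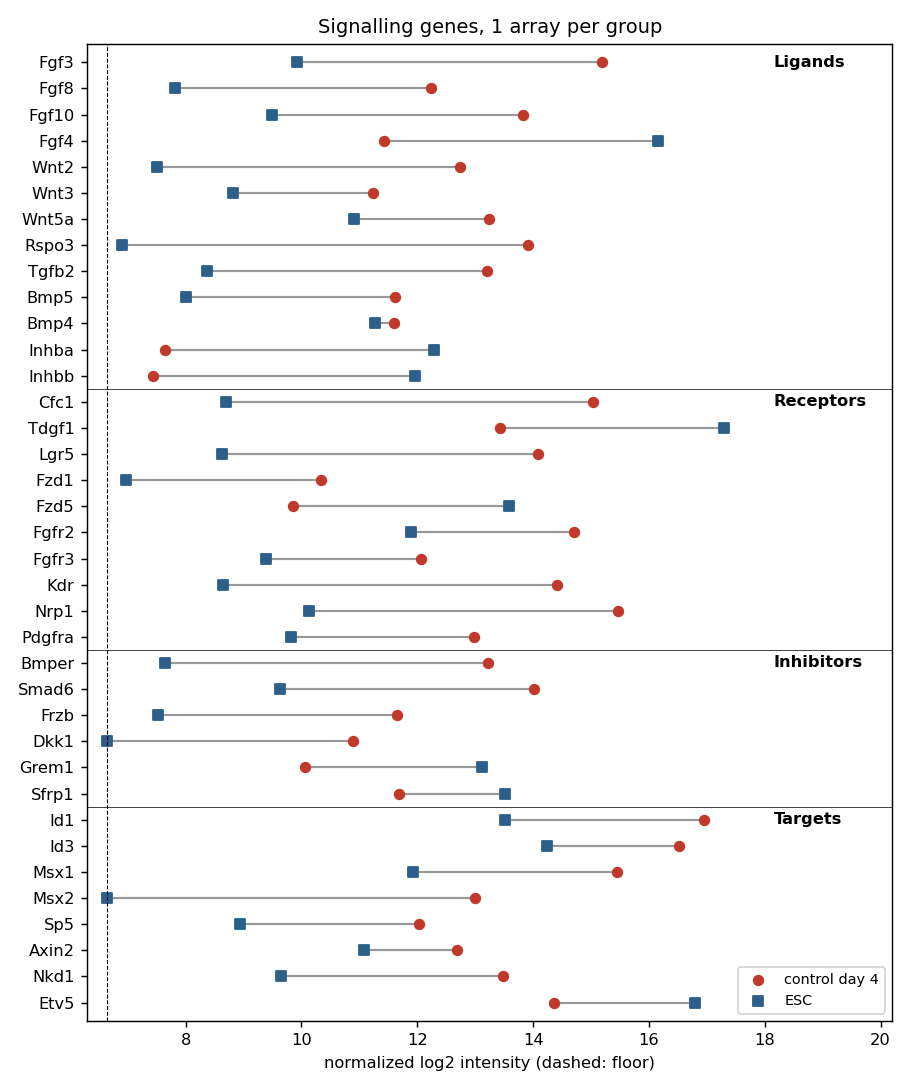
Each line is 1 gene, with its normalized log2 intensity at day 4 (red circles) and in ESCs (blue squares) on the x axis and genes grouped as ligands, receptors, inhibitors and targets down the page. Rspo3, Cfc1, Bmper and Msx2 show day 4 above ESC by more than 5 log2 units, while Fgf4, Tdgf1, Inhba and Fzd5 show the opposite order.

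Several gene pairs held members on opposite sides. Cdh2, N-cadherin, was at 14.01 at day 4 against 10.01 in ESCs, while Cdh1, E-cadherin, was at 13.45 at day 4 against 16.35 in ESCs. Fgf8 and Fgf4, Cfc1 and Tdgf1, and Evx1 and Gbx2 (-1.73) split in the same way. Klf1 (2.09) was higher and Klf4 (-3.27) lower. The Polycomb chromobox gene Cbx2 (2.20) was higher and Cbx7 (-2.27), the form known from ESCs, lower. Tet3 differed by 1.61, 0.31 and 0.21 on its 3 probes, the first of them the brightest, and Tet1, a DNA dioxygenase of ESCs, was lower at -2.42. In all, 8 of 18 measured pairs had a first member at least 2-fold higher and a second at least 2-fold lower. Over all genes past the filter 12.8% were higher and 13.9% lower. The pairs and their order were chosen by hand, so this count describes the chosen genes only. It takes Tet3 at its brightest probe.

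The cadherin exchange stood within a wider difference of epithelial genes. Of 27 epithelial genes past the filter 17 were lower and 4 higher, with a median of -1.37 over 29 measured. The lowest were the tight junction genes Cldn4, Tjp3 (-3.39) and Cldn3 (-2.62), the desmosome gene Pkp3 (-3.48) and Cdh1. Ovol1 (2.94), Dsp (2.71) and Krt18 (1.49) ran against them. Of 19 mesenchymal genes 7 were higher and 2 lower. Zeb2, a repressor of Cdh1, was higher by 4.03, Twist1 by 2.48, Cdh11 by 2.22, Snai2 by 2.09 and Snai1 by 1.40, while Vim, vimentin, was level at 0.18 and S100a4 lower.

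Genes of chromatin differed by list. Of 15 DNA methylation genes past the filter 6 were lower and 2 higher, with a median of -0.10 over 16 measured. Dnmt3l, the cofactor of de novo DNA methylation, was at 8.90 at day 4 against 15.51 in ESCs. Dnmt1 (-0.004), Dnmt3b (0.58) and Dnmt3a (0.33) were under 2-fold, and Tet2 was lower at -2.59. Of 23 Polycomb and trithorax genes 4 were higher, among them Bmi1 (2.72) and Kdm6b (1.83), and 5 lower, among them Mtf2 (-1.78) and Jarid2 (-1.58), both accessory subunits of Polycomb complex PRC2. Ezh2, its catalytic subunit, was level at 0.14. Of 22 SWI/SNF and NuRD genes 6 were higher and none lower, with Dpf3 (at least 2.80), Smarca2 (2.62), Smarce1 (2.17) and Smarcd3 (1.87), a subunit of heart progenitors, in front.

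Hox genes differed by cluster. Of 8 Hoxb genes past the filter 6 were higher and none lower, led by Hoxb2, at 14.02 at day 4 against 9.35 in ESCs, and Hoxb6 (2.46). Hoxb3, among the 6, differed by 1.76 and 0.44 on its 2 probes. Of 7 Hoxd genes 4 were higher, led by Hoxd1 (4.76) and Hoxd9 (2.71). Of 5 Hoxc genes 4 were lower, from Hoxc6 (-2.81) to Hoxc10 (-1.85), and of 3 Hoxa genes none was called either way. Median ESC levels were 8.65 for Hoxb and 8.09 for Hoxd, below the filter, so their dim members passed it only through day 4. Over all measured members the median differences were 1.60 for 10 Hoxb, 0.76 for 9 Hoxd, -1.47 for 9 Hoxc and 0 for 10 Hoxa genes. All 5 Gata factors past the filter (Gata1, Gata2, Gata3, Gata4 and Gata6) were higher, and the median over all 6 measured was 3.36. Gata2 and Gata3 were dim in ESCs, at 8.08 and 7.66. For both, passing the filter through day 4 already made a 2-fold difference, so their calls add nothing to this count.

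Imprinted genes, expressed from 1 parental copy, were mostly higher, with 13 of 20 past the filter higher, 3 lower and a median of 1.38 over 21 measured. Igf2, a fetal growth factor, was at 17.78 at day 4 against 12.95 in ESCs. Peg10 was higher by 4.02, Dlk1 by 3.18, Mest by 3.12, Ndn by 2.20 and Peg12 by 2.11. Ascl2 (-2.02), Gnas (-1.31) and Plagl1 (-1.12) were lower, but the other probes of Gnas reached 0.29, and dim second probes of Dlk1 and Peg12 gave 0.40 each.

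Metabolic, stress and cell cycle lists did not share a direction. Glycolysis and hypoxia genes were lower in 8 of 20 and higher in none, with Bnip3 (-3.02), Pdk1 (-2.25), Aldoc (-2.21), Hk1 (-2.09), Slc2a3 (-1.49) and Ero1a (-1.37) as the lowest. Cholesterol and lipid synthesis genes were higher in 7 of 15 and lower in none, including Fasn (2.30), Nsdhl (1.499) and Scd2 (1.49). Metallothioneins were lower, Mt1 at 13.62 at day 4 against 17.65 in ESCs and Mt2 at 12.40 against 17.39, and none of 13 oxidative stress genes was higher while 6 were lower. Among p53 targets 4 of 13 were lower, with Pmaip1 (-2.71) and Cdkn1a (-1.62), an inhibitor of the cell cycle, and none higher. Replication and mitosis genes were level, with 1 of 19 higher and none lower. Oxidative phosphorylation genes were level too, with 1 of 22 on each side, and the signs of both medians (-0.03 and -0.15) changed in the values as deposited. Ccnd2 (1.95), a D cyclin, and Cdkn1c (1.38) were higher, and Cdkn2b (-2.998), an inhibitor of cyclin D kinases, lower.

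Genes outside these lists reached the extremes of the ranking. Asb4, a subunit of ubiquitin ligases known from embryonic vessels, was at 14.97 at day 4 against 6.72 in ESCs, the ESC level lying next to the floor. Spin2c was higher by 6.11, and Vrtn, vertnin, by 6.08. Vstm2b was at least 7.83 and Prdm6, a repressor of muscle and vessel lineages, at least 7.32 higher, with ESCs at the floor. Among genes with strong signal at day 4, Amot, a partner of Yap, was higher by 5.21, Pmp22 by 4.92, Hmga2, a chromatin protein of embryonic cells, by 4.33, Prtg by 4.27 and 4.59 on its 2 probes, and Podxl, a sialomucin, by 3.25. At the low end stood Mymx, a muscle fusion peptide, at 6.89 at day 4 against 15.37 in ESCs, with -5.20 on its other probe, and Triml1 (-7.91). Nphs1, nephrin, was at least 7.40 lower on 1 probe but at the floor on both arrays on the other. Trap1a (-6.18), Mageb16 (-6.20) and Nupr1 (-6.42) followed.

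The arrays of the other 3 cultures show how the levels of these genes stood elsewhere. T was at 13.98 in knockdown cells at day 4, and at day 10 at 9.67 in knockdown cells and 9.28 in control cells. Mesp1 was at 12.86 in knockdown cells at day 4 and at the floor in both cultures at day 10. Evx1 was at 14.40 in knockdown cells at day 4 and at 9.91 in control cells at day 10. Day 4 was thus the day of the highest level for all 3. Asb4 was at 13.05 in knockdown cells at day 4 but at 15.48 in control cells at day 10, its highest level, and Kdr was still at 13.26 in control cells at day 10. Sox2 was at 10.58 in knockdown cells at day 4 and at 8.88 in control cells at day 10. Dnmt3l was at 8.69 in knockdown cells at day 4 and at the floor in both cultures at day 10.

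**Figure D4:**
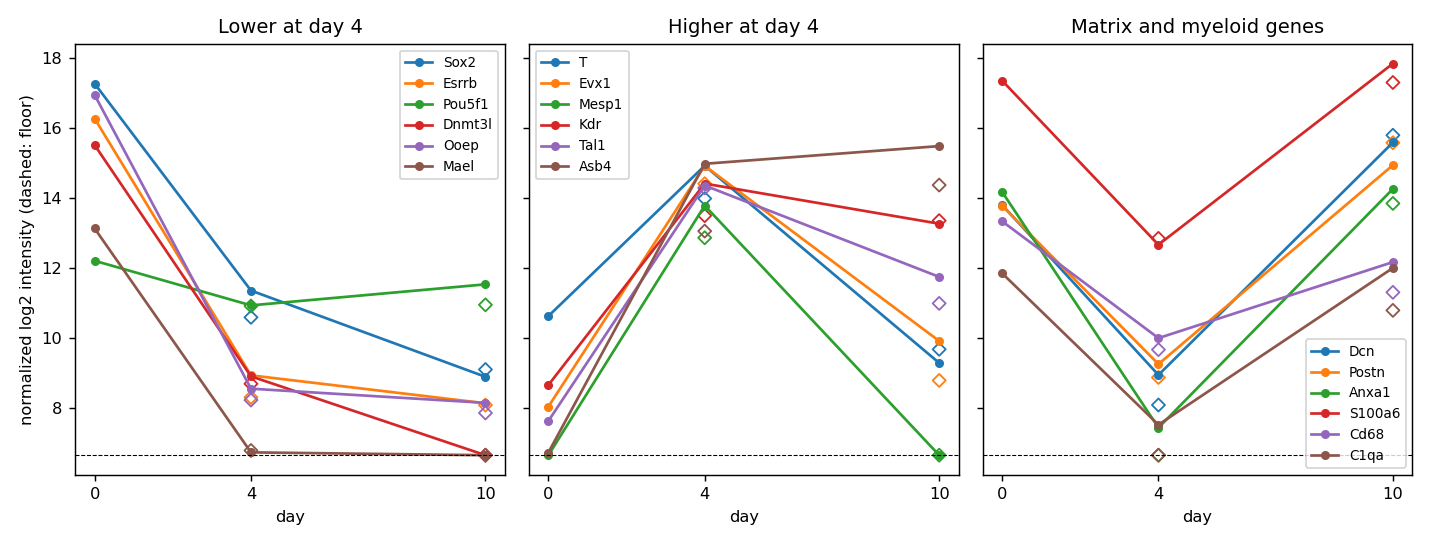
Normalized log2 intensity of 18 genes is plotted against day, with filled points joined by lines for ESCs (day 0) and control cells (days 4 and 10), open diamonds for knockdown cells and a dashed line for the floor. The 6 matrix and myeloid genes are lowest at day 4, with Dcn at 8.94 at day 4 and 15.58 at day 10, whereas T, Evx1 and Mesp1 peak at day 4.

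By chromosome, the share of genes called higher lay between 8.07% (chromosome 17) and 16.1% (chromosome 12) on the autosomes. On the X chromosome 89 of 384 genes past the filter (23.2%) were higher and 57 (14.8%) lower, and its median difference was 0.28. The share of lower genes lay between 11.8% (chromosome 2) and 17.2% (chromosome 4) on the autosomes, a range that holds the X chromosome. Promoter composition differed by class: 15 or more CpG dinucleotides stood in 65.7% of the promoters of higher genes, 48.0% of those of lower genes and 68.3% of those of genes past the filter and under 2-fold. CACCTG, the E-box of Snai and Zeb factors, was present in 14.6% of promoters of higher genes, 27.1% of promoters of lower genes and 19.8% of all, and CpG content differed between these classes as given.

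**Figure D5:**
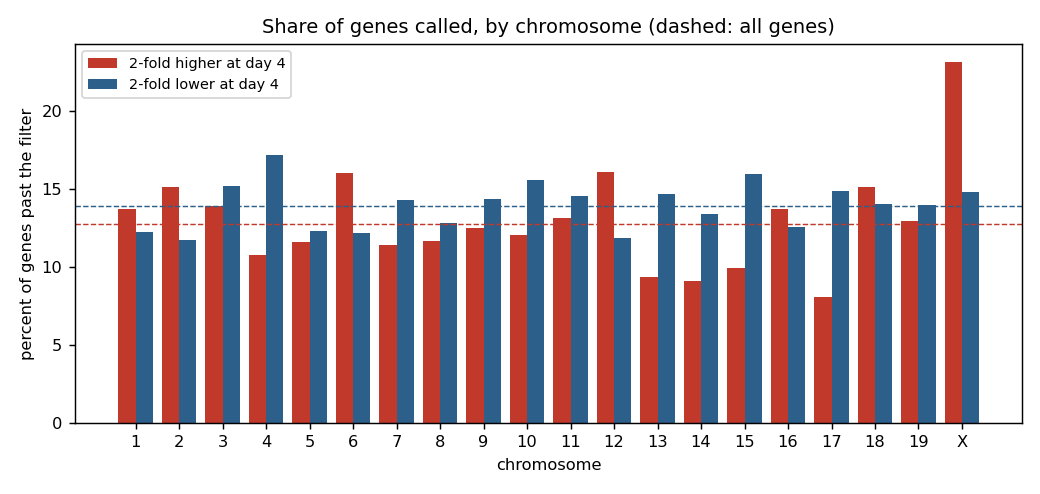
Bars give the percentage of genes past the filter on each chromosome that were at least 2-fold higher (red) or lower (blue) at day 4 than in ESCs, and dashed lines the percentages over all genes (12.8 and 13.9). The X chromosome has the highest share of higher genes, 23.2%.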

How the data were processed

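Total RNA of 5 mouse cultures was measured on single-colour arrays, 1 array per group. The authors deposited linear intensities, 1 per probe, made with Agilent Feature Extraction 10.7.1.1 per the submitters' processing notes. Whether they normalized between arrays was not given in those notes. The array medians differed, and 38 probes at day 4 and 3 in ESCs stood at or below 0. The 5 arrays were quantile normalized, set to a floor of 100 and taken to log2. Of 26423 probes, 20377 carried 1 symbol and 6046 were unnamed here: 18213 were named by current symbol in the RefSeq gene table of GRCm38.p6, 2126 through a synonym, and 38 kept the older symbol. Each of 17742 genes was taken at the probe with the strongest signal over all 5 arrays, and 2278 genes had more than 1. A gene was called at a 2-fold difference with the brighter array at or above its median. With 1 array on each side no p-value could be had, which limits the precision of every value.

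For genes with 2 probes past the filter, the SD of the gap between the log2 differences of both probes, divided by the square root of 2, gave the between-probe SD. Lists (44, with 936 of 1059 genes measured) and 45 name families were described by counts and medians. The comparison, lists and members were chosen with earlier results of these data known. The genes named were those with the 15 highest and 15 lowest differences, the 8 largest differences each way with 1 array at the floor, the 10 with the strongest signal among 4-fold changes each way, up to 6 members of a list or family furthest towards the side of its median and 3 on the opposite side, all members of list roles with 12 or fewer members, 31 anchor genes and 18 pairs. Chosen after their values were seen were Dcn, Postn, Dnmt1, Dsp, Ezh2, Frzb, Fzd1, Fzd3, Hand2, Runx1, Twist1, Vim, Wnt2b, Wnt5a, Wnt5b, Wnt7b, Wnt9a, the germline genes whose promoters are shown, the genes at the 2-fold limit, genes named because they were at the floor, and the neighbouring genes of the closing section. Alternatives were the values as deposited, scaling to a common 75th percentile, quantile normalization of the pair alone, loess centring (span 0.3, 3 iterations), floors of 50 and 200, leaving out the filter or setting it at the 75th percentile, 4-fold, the mean of all probes and list members past the filter only. The functions were tested on simulated data with known changes. Python 3.11.15, pandas 2.3.3 and statsmodels 0.14.6 were used.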

Additional observations from a re-analysis of the deposited data

Results flagged for a closer look

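For 5 genes of the lists that were called 2-fold apart between control day 4 and ESCs, the difference between day 4 and ESCs had the opposite sign in knockdown cells and in control cells, both set against the same ESC array, and this difference was not tested. In 4 of the 5 the knockdown value was smaller in size than the between-probe SD of 0.612. Fgf5, of primed epiblast, was at -0.81 in knockdown cells and 2.10 in control cells. Ovol1, an epithelial zinc finger factor, was at -0.19 in knockdown cells and 2.94 in control cells. Zeb2, a repressor of Cdh1, was at the floor in knockdown cells, a difference of -0.37, and at 4.03 in control cells. Wnt2b was at -0.52 in knockdown cells and 1.103 in control cells, and Nnat, an imprinted gene, at -0.024 in knockdown cells and 1.503 in control cells, with the other probe of Nnat at the floor at day 4 in control cells and in ESCs.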

How the results depend on the processing

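The count of genes at least 2-fold higher at day 4 was 1447 as reported, 2244 in the values as deposited, 677 with the filter at the 75th percentile and 450 at 4-fold. The count of lower genes was 1574 as reported, 761 with the filter at the 75th percentile and 658 at 4-fold. These stricter settings keep fewer genes by construction. As deposited, all 1447 higher genes were also called, and so were 1219 of the 1574 lower genes. With scaling to a common 75th percentile 1197 of the 1447 were still called higher and 1559 of the 1574 lower, and with loess centring 1273 and 1574. None of the reported genes was called in the other direction under any of the 9 settings that keep the 2-fold limit. The medians of the naive pluripotency, primitive streak and early cardiac lists moved by less than the between-probe SD of 0.612 under all 8 alternatives run for them. That SD is of a single probe and not of a list median, and the median of all genes moved by 0.17 at most. Over members past the filter only, other list medians moved further, to -3.25 for the germline list, -2.63 for fibroblast matrix and -3.34 for the myeloid list, which stood at -0.73 with a floor of 200. Among single genes, Eng, Ero1a, Etv4, Fgfr4, Gnas, Plagl1, Pou5f1, Tgif1 and Tob1 were under 2-fold as deposited, Dusp5 and Wnt2b with loess centring and with the 75th percentile, Mrpl55 with loess centring, Fzd2 and Hoxb3 with the pair normalized alone, and Fzd3, Gnas, Nnat and Tet3 with the mean of all probes. With the pair normalized alone, the probe was chosen over those 2 arrays. The other probes of Fzd2 and Hoxb3 gave 1.08 and 0.44 under the reported normalization. The mean of all probes took in second probes of Fzd3 and Nnat that were at the floor on both arrays. Further causes were not tested. Differences with an array at the floor moved with it: the difference of Mesp1 was 6.13 with a floor of 200. With the mean of all probes the difference of Fgf8 was 2.35, the difference of Tet3 was 0.71, under 2-fold, and the difference of Nphs1 was -3.70. With 1 array per group no array could be left out. No paired analysis was possible because each group held 1 array. Limits are that culture, array and day cannot be told apart, that detection and saturation marks were not used, and that the floor hides the order of dim probes.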

Other observations

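Neighbouring genes past the filter were listed where they were called in the same direction without a gap, in the order of the RefSeq table, and these genes were chosen after their values were seen. The longest such run had 7 genes on chromosome 11, all higher at day 4: Hoxb6, Hoxb5, Hoxb3, Hoxb4, Hoxb2, Hoxb1 and Skap1, with a median of 1.79. On the other probe of Hoxb3, which gave 0.44, that gene was under 2-fold and the run would break. Runs of 5 lower genes stood on chromosome 9, one around Tdgf1 (Prss50, Tmie, Als2cl, Tdgf1 and Lrrc2, median -3.86) and one around Ooep (Rn7sk, Gsta4, Ooep, Ddx43 and Cgas, median -2.86). A run of 4 higher genes on chromosome 9 (Kcnj5, Fli1, Ets1 and Kirrel3) had a median of 4.06. How often such runs arise in a shuffled order was not tested.

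Mrpl36, a mitochondrial ribosomal protein gene with 1 probe, had the largest difference with ESCs at the floor. Its deposited intensity at day 4 was 37691 in knockdown cells and 35247 in control cells, against 6 in ESCs, and at day 10 it was -35 in knockdown cells and 14517 in control cells. Of 65 genes of mitochondrial ribosomal proteins past the filter, 2 were called higher and none lower, the other being Mrpl55 (1.04). Of the 6046 unnamed probes 1887 passed the filter, of which 186 (9.86%) were at least 2-fold higher and 306 (16.2%) lower at day 4.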
